A study of Mus musculus with 54 samples.

Results

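A group of 8 genes of mouse chromosome 11 was followed here because their levels differed between miR-375 knockout (KO) and wild-type (WT) intestinal cells. They were selected on those single-cell levels, because the difference was reported to run alike in both sets of samples: Rprml, Cuedc1, Pctp, Gm11508, 1810065E05Rik, Adora2b, Arsg and Otop3. They are 8 of the 27998 genes listed for the single-cell matrices. The KO against WT contrast in these matrices chose the genes, so no test of the 8 genes is given for it, and the 8 genes are tested in separate mRNA libraries only. The shared chromosome was part of how the genes were put forward and is not a finding.

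The series is about miR-375 in the small intestine of mice, a microRNA abundant in hormone-secreting cells. Separated intestinal cells came from 12 month old mice, as 2 WT and 2 miR-375 KO samples numbered set 1 and set 2, all labelled strain C57BL6/2J. Neither the making of the KO allele, nor the kinship of WT and KO mice, nor the number of mice behind a sample is stated by the labels. Messenger RNA came from 16 libraries of crypt cells sorted as Sox9-EGFP Low (a reporter of the transcription factor Sox9) from C57BL/6J mice, 4 each on chow, on high fat diet, germ-free, and conventionalized, the usual term for germ-free mice given microbes. The ages of these mice are not given, and no label of the 16 libraries names the KO.

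The genes have unlike roles. Rprml encodes a small membrane protein related to Reprimo, which halts the cell cycle when p53 induces it. Cuedc1 encodes a protein with a CUE domain, a fold that binds ubiquitin. Pctp encodes a lipid carrier of the START family that moves phosphatidylcholine between membranes. Adora2b encodes the adenosine A2B receptor, which raises cyclic AMP and drives chloride secretion in intestinal epithelium. Arsg encodes a lysosomal sulfatase that acts on heparan sulfate, and Otop3 encodes a proton channel of the otopetrin family. Gm11508 is an antisense transcript, and 1810065E05Rik is a protein-coding gene.

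In the GRCm38 annotation the 8 genes lie on chromosome 11 over 56.9 Mb. 1810065E05Rik (chr11:58421111-58426024, plus strand) comes first, and Adora2b (chr11:62248984-62266453, plus strand) follows after 3.82 Mb. Gm11508 (chr11:88011991-88048006, minus strand) and Cuedc1 (chr11:88098058-88194140, plus strand) are 0.05 Mb apart. Pctp (chr11:89982665-90002894, minus strand) starts 1.79 Mb past Cuedc1. Rprml (chr11:103649570-103650579, plus strand), Arsg (chr11:109473374-109573330, plus strand) and Otop3 (chr11:115334731-115346927, plus strand) lie beyond a gap of 13.7 Mb. Mir375 itself is on chromosome 1, so no member lies beside the deleted gene.

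The 250 bases before a RefSeq start are shown for the 4 genes with the plainest differences, 2 that were higher and 2 that were lower in KO, so that their starts can be compared. They are RefSeq windows of GRCm38.p6, 5′ to 3′ on the gene's strand, the first of 2 windows for Cuedc1. RefSeq starts differ from the gene positions above for Cuedc1 and Rprml. The Cuedc1 window lies inside the gene as listed, and the Rprml window ends short of the listed start. Capitals mark matches, on either strand, to TATAAA (the TATA box), CCAAT (the box named after it), GGGCGG (the GC box) or a pair of GAAA runs set 2 bases apart (the core of interferon response elements).
Rprml, chr11:103649259-103649508, plus strand: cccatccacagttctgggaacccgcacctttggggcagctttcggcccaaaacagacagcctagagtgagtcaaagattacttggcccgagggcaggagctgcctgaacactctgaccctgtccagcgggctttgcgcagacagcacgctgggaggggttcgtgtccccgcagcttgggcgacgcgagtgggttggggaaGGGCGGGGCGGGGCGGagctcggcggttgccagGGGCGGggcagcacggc
Cuedc1, chr11:88098896-88099145, plus strand: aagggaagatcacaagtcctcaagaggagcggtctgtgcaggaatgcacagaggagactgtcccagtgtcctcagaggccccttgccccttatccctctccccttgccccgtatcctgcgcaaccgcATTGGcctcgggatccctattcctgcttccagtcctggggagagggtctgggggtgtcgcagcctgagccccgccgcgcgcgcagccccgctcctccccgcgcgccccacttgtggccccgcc
Pctp, chr11:90002895-90003144, minus strand: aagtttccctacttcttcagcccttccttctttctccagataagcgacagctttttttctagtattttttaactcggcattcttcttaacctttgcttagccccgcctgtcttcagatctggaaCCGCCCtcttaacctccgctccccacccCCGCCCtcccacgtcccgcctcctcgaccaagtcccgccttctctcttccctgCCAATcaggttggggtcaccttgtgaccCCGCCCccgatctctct
1810065E05Rik, chr11:58420861-58421110, plus strand: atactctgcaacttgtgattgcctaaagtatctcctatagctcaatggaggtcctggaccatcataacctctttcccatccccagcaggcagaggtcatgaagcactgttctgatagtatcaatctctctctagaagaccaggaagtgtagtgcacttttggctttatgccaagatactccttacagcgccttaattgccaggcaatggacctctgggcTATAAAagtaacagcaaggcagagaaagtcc

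Of 32851 such windows in the mouse table, 12.4% hold TATAAA, 33.8% CCAAT, 32.7% GGGCGG and 2.98% the interferon response core. The window of Rprml holds 4 GGGCGG matches and is 66.8% G and C. The window of Cuedc1 holds 1 CCAAT match and that of Pctp 1 CCAAT and 3 GGGCGG matches. The window of 1810065E05Rik has 1 TATAAA match, no GGGCGG and a lower G and C content of 46%. The windows of Adora2b, with 6 GGGCGG and 1 CCAAT matches, and Otop3, with 2 CCAAT matches, differ again, and Arsg has no match. None of the windows searched, 10 for 7 of the 8 genes, holds the interferon response core. Among the 4 windows printed, no motif of this list was shared by both higher genes.

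The cells behind the single-cell values were those with a UMI (a counted RNA molecule) of the epithelial gene Epcam and none of the leukocyte gene Ptprc, called Epcam-positive, and the reverse, called Ptprc-positive. Epcam-positive cells numbered 1122 and 1160 in WT and KO of set 1 and 1627 and 2226 in set 2, with 22430615 to 47616845 UMIs per sample. Ptprc-positive cells numbered 12 and 10 in set 1, too few to read a low gene, and 981 and 509 in set 2. Set 2 stands apart from set 1: its median mitochondrial share over all barcodes was 40.9% and 37.9%, against 5.90% and 5.62%. The gene list of these matrices has no entry for Mir375, so the label of the KO samples could not be checked on the targeted gene. Barcodes shared between libraries numbered 1 in set 1 and 12 in set 2. Normalized levels (CPM) are a gene's UMIs scaled to 1000000 UMIs of the same cells, and the intervals cover counting error only.

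Rprml, Cuedc1 and Gm11508 were the genes most clearly higher in KO Epcam-positive cells, and Pctp and 1810065E05Rik were lower. Rprml stood at 2.8 CPM in WT set 1, 15.4 CPM in KO set 1, 1.66 CPM in WT set 2 and 8.89 CPM in KO set 2. Both KO samples lay above both WT samples, with KO to WT ratios of 5.49 (95% 4.2 to 7.29) in set 1 and 5.36 (95% 4.2 to 6.91) in set 2. Cuedc1 stood at 1.62 CPM in WT set 1, 7.58 CPM in KO set 1, 1.81 CPM in WT set 2 and 6.54 CPM in KO set 2. Its ratios were 4.68 (95% 3.27 to 6.88) and 3.62 (95% 2.84 to 4.66), with WT samples close to each other and KO samples close to each other.

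Gm11508 rests on few molecules, 2 and 29 UMIs in WT and KO of set 1 and 9 and 56 UMIs in set 2. Its levels were 0.0875 CPM in WT set 1, 1.29 CPM in KO set 1, 0.189 CPM in WT set 2 and 1.21 CPM in KO set 2. The ratio was 14.8 (95% 3.74 to 128) in set 1 and 6.38 (95% 3.13 to 14.7) in set 2. Gm11508 overlaps Srsf1, a splicing factor gene on the other strand, and 2010015M23Rik on its own strand, so its counts are uncertain. Srsf1 itself was at 89.7 and 102 CPM in WT and KO of set 1 and at 82.0 and 72.8 CPM in set 2, and 2010015M23Rik at 1.31 and 1.43 CPM and at 0.80 and 0.71 CPM. Neither neighbour moved the same way in both sets by 1.5-fold.

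Pctp stood at 7.35 CPM in WT set 1, 2.72 CPM in KO set 1, 8.95 CPM in WT set 2 and 3.06 CPM in KO set 2. Both KO samples lay below both WT samples, with ratios of 0.37 (95% 0.271 to 0.499) and 0.342 (95% 0.281 to 0.414). 1810065E05Rik stood at 12.3 CPM in WT set 1, 4.15 CPM in KO set 1, 16 CPM in WT set 2 and 4.95 CPM in KO set 2. Its ratios were 0.337 (95% 0.264 to 0.428) and 0.309 (95% 0.265 to 0.359), the lowest KO to WT ratios among the 8 genes in both sets.

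Adora2b stood at 1.09 CPM in WT set 1, 2.36 CPM in KO set 1, 1.34 CPM in WT set 2 and 4.8 CPM in KO set 2, with ratios of 2.16 (95% 1.32 to 3.63) and 3.57 (95% 2.69 to 4.79). The remaining pair went against the description under which the genes were grouped. Arsg stood at 1.79 CPM in WT set 1, 2.14 CPM in KO set 1, 1.91 CPM in WT set 2 and 5.27 CPM in KO set 2, and its ratio of 1.19 (95% 0.77 to 1.86) in set 1 includes no difference. Otop3 stood at 0.831 CPM in WT set 1, 1.11 CPM in KO set 1, 0.483 CPM in WT set 2 and 4.61 CPM in KO set 2, and its ratio was 1.34 (95% 0.709 to 2.58) in set 1 against 9.54 (95% 6.19 to 15.4) in set 2. Summed over Epcam-positive cells, Arsg and Otop3 therefore separated KO from WT clearly in set 2 alone. Arsg overlaps Slc16a6, a gene on the other strand that read 7.0 and 9.27 CPM in set 1 and 14.3 and 24.7 CPM in set 2.

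**Figure D1:**
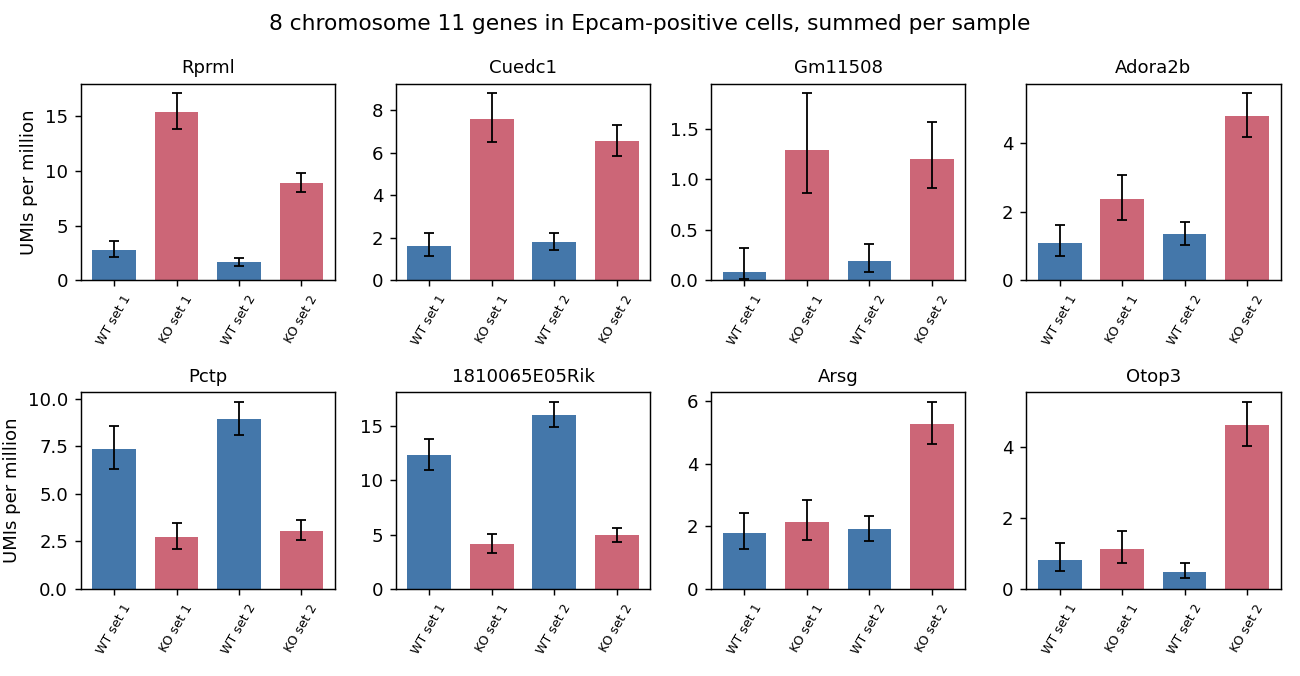
CPM of the 8 genes in Epcam-positive cells, 1 bar per sample, blue for WT and red for KO, with exact Poisson 95% intervals. Rprml and Cuedc1 are high in both KO samples, Pctp and 1810065E05Rik low in both, and Arsg and Otop3 high in KO set 2 only.

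The share of cells with a UMI showed the same order when every cell was thinned to 5000 UMIs, which left out 128 and 143 of the set 2 cells and none of set 1. Rprml was found in 1.6% and 7.33% of WT and KO cells of set 1 and in 0.867% and 5.23% in set 2. Before thinning these shares were 2.76% and 20.1%, then 1.91% and 12.4%. 1810065E05Rik was found in 6.95% and 2.76% of thinned cells of set 1 and in 5.87% and 2.16% of set 2, the reverse direction.

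Read against the whole table, 10.9% of the 11205 genes with a mean of at least 1 CPM had both KO samples above, or both below, both WT samples. The 7 members at that level did so, and so did Gm11508 below it, which follows from how they were chosen. A stricter rule asked for a 2-fold difference on the log2(CPM + 1) scale, the same way in both sets, at a mean of at least 5 CPM. It was met by 9 of 8782 genes (0.102%), 4 higher (0.0455%) and 5 lower (0.0569%), among them Rprml, Pctp and 1810065E05Rik. The other 5 genes had means under 5 CPM. At a minimum of 1 CPM, chosen after seeing the data, 13 of 11205 genes (0.116%) met it, 4 of them among the 7 members at that level, with Cuedc1 added. Just inside the 2-fold line on the smaller of the 2 differences were Pctp (1.17), Gcg (1.14) and Gal3st2 (1.11), and just outside were Slc1a3 (0.99), Oas1a (0.94) and H2-Aa (0.94). Across samples, edgeR's quasi-likelihood test called 0 of 12974 genes (0%) in Epcam-positive cells, 103 had an unadjusted p under 0.05, and DESeq2 called 9.

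Cell classes were rebuilt by clustering each set without the 8 genes and named from fixed markers. In WT samples Rprml was nearly confined to enteroendocrine-like cells, the hormone-secreting cells of the gut: 54 of its 64 UMIs in set 1 (84.4%) and 77 of 89 in set 2 (86.5%). In KO samples that share was 19.3% and 22.2%, and Rprml was counted in every other epithelial class. Unnamed clusters of set 1 held 1 Rprml UMI in WT and 28 in KO. Among them was a cluster of 14 WT and 15 KO cells with enteroendocrine markers among its top genes, which the shares leave out. The level in enteroendocrine-like cells went from 111 to 193 CPM in set 1 and from 262 to 278 CPM in set 2, ratios of 1.73 (95% 1.2 to 2.5) and 1.06 (95% 0.777 to 1.45).

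Outside them the difference was far wider. In tuft-like cells, the chemosensory cells, Rprml went from 2.47 to 70.7 CPM in set 1 and from 4.08 to 61.9 CPM in set 2. In goblet-like cells, which secrete mucus, it went from 1.49 to 21.9 CPM in set 1 and from 0.596 to 15.7 CPM in set 2, ratios of 14.7 (95% 6.08 to 46.4) and 26.3 (95% 12.5 to 66.7). In stem-like cells Rprml went from 0.524 to 12.4 CPM in set 1 and from 0.444 to 11.3 CPM in set 2, and in cycling-like cells from 0.366 to 10.7 CPM in set 1 and from 0.0797 to 8.29 CPM in set 2. Enterocyte-like cells, the absorptive lineage, went from 0.117 to 8.71 CPM in set 1 and from 0 to 1.77 CPM in set 2, and Paneth-like cells, the defensin-secreting crypt cells, from 0 to 2.53 CPM in set 1 and from 0 to 1.5 CPM in set 2. KO was above WT in all 7 epithelial classes in both sets. In set 2 the T lymphocyte-like cells held 1 Rprml UMI in WT and 2 in KO.

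Rprml was also set against the other enteroendocrine transcripts of each class. Per 1000 UMIs of the 18 enteroendocrine markers, KO enteroendocrine-like cells held 2.37 Rprml UMIs in set 1 and 2.57 in set 2. KO goblet-like cells held 69 and 63.1, and KO stem-like cells 277 and 451. The summed markers in goblet-like cells were 437 CPM in WT and 317 CPM in KO of set 1, and 385 and 249 CPM in set 2. In stem-like cells they were 37.7 and 44.8 CPM in WT and KO of set 1 and 29.5 and 25.1 CPM in set 2. They were also higher in KO in Paneth-like cells of set 1 and tuft-like cells of set 2. The part of free RNA in these values was not tested.

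Cuedc1 had a similar pattern with a wider WT distribution. In enteroendocrine-like cells it went from 18.6 to 33.8 CPM in set 1 and from 40.8 to 35.5 CPM in set 2, ratios of 1.82 (95% 0.721 to 4.83) and 0.87 (95% 0.358 to 2.12) that include no difference. In tuft-like cells Cuedc1 went from 9.86 to 46.2 CPM in set 1 and from 4.08 to 47.1 CPM in set 2, and in stem-like cells from 2.62 to 18.8 CPM in set 1 and from 2.0 to 17.1 CPM in set 2, ratios of 7.16 (95% 2.92 to 22.8) and 8.57 (95% 4.29 to 19.4). Goblet-like cells went from 1.19 to 5.95 CPM in set 1 and from 3.49 to 10.8 CPM in set 2. In T lymphocyte-like cells of set 2, Cuedc1 was at 11 CPM in WT and 10.6 CPM in KO, with no difference detectable.

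Summed by class, Pctp and 1810065E05Rik were lower in KO in enterocyte-like, goblet-like, stem-like, cycling-like and Paneth-like cells of both sets. Some intervals include no difference. In set 1 they do for 1810065E05Rik in stem-like cells, 0.601 (95% 0.243 to 1.5), and for Pctp in Paneth-like cells, 0.633 (95% 0.0983 to 3.25). Pctp went from 12.6 to 2.31 CPM in set 1 and from 10.4 to 4.89 CPM in set 2 in stem-like cells and from 12.8 to 3.01 CPM in set 1 and from 11.9 to 4.8 CPM in set 2 in cycling-like cells. In enterocyte-like cells Pctp went from 8.69 to 3.73 CPM in set 1 and from 6.15 to 2.59 CPM in set 2, ratios of 0.43 (95% 0.251 to 0.705) and 0.421 (95% 0.288 to 0.607). Enterocyte-like clusters with at least 20 cells of each genotype were lower in KO for Pctp, except a set 2 cluster. There Pctp was at 0.696 CPM in WT and 1.61 CPM in KO, from 2 and 12 UMIs. Pctp was also lower in T lymphocyte-like cells of set 2 summed together, 12.1 against 5.04 CPM. That rests on 33 and 9 UMIs, a ratio of 0.417 (95% 0.176 to 0.891). It did not hold in each cluster: 1 was at 15.3 CPM in WT and 15.8 CPM in KO, from 12 and 4 UMIs. Another held 5 and 0 UMIs, and a further cluster 16 and 5. In enteroendocrine-like and tuft-like cells Pctp had at most 6 UMIs in a sample, and no difference was detectable at this depth.

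1810065E05Rik went from 17.6 to 6.69 CPM in set 1 and from 30.3 to 10.4 CPM in set 2 in cycling-like cells and from 22.4 to 9.42 CPM in set 1 and from 18.8 to 6.71 CPM in set 2 in enterocyte-like cells. The enterocyte-like decrease was not seen in each cluster with at least 20 cells of each genotype. In a set 2 cluster 1810065E05Rik was at 35.7 CPM in WT and 33.65 CPM in KO, from 118 and 58 UMIs. A set 1 cluster was at 12.6 CPM in WT and 16.6 CPM in KO, from 5 and 16 UMIs. The ratios, 0.943 (0.677 to 1.3) and 1.32 (0.461 to 4.6), have counting intervals that include no difference. The other such clusters were lower in KO. Goblet-like cells went from 5.95 to 1.19 CPM in set 1 and from 5.02 to 2.4 CPM in set 2. No UMI of 1810065E05Rik was found in enteroendocrine-like cells of any sample. In set 1 the cycling-like and enterocyte-like values compare partly different clusters: 1 cycling-like cluster held 134 WT and 24 KO cells and another 15 and 134, and 1 enterocyte-like cluster held 0 WT and 137 KO cells.

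**Figure D2:**
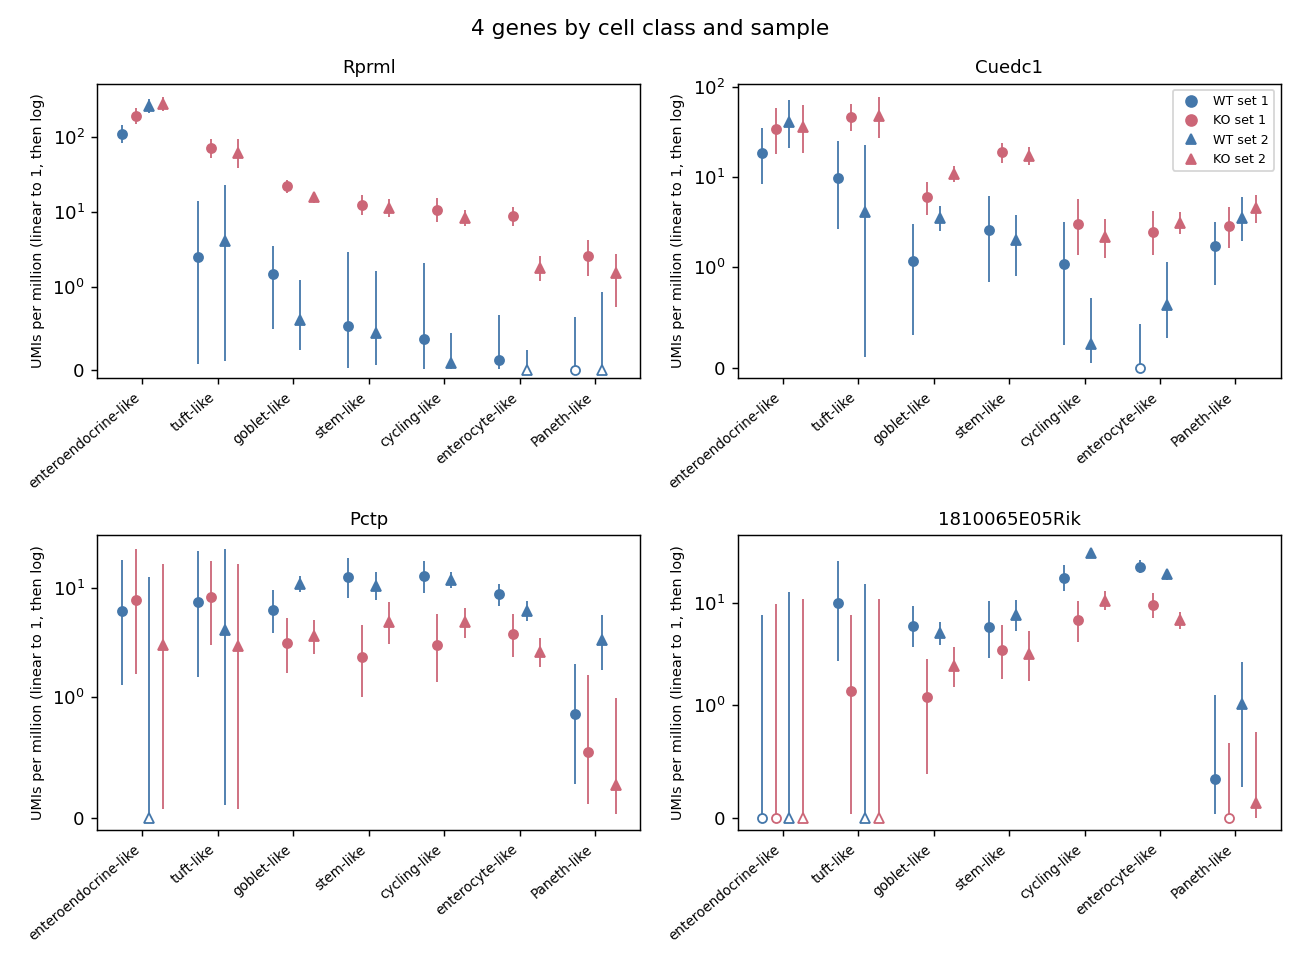
CPM of 4 genes by cell class and sample, circles for set 1 and triangles for set 2, blue for WT and red for KO, open where no UMI was counted, with exact Poisson 95% intervals. Rprml is high in enteroendocrine-like cells of all 4 samples and reaches the other classes in KO, while Pctp and 1810065E05Rik are lower in KO enterocyte-like and cycling-like cells.

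Otop3 and Adora2b were mostly enterocyte transcripts: enterocyte-like cells held 17 of 19 Otop3 UMIs in WT set 1 (89.5%) and 25 of 29 in WT set 2 (86.2%), and 25 of 25 and 62 of 67 Adora2b UMIs. Arsg was spread more widely, with 18 of 42 and 36 of 102 WT UMIs there. Enterocyte content moved between the samples: the 16 summed enterocyte markers were at 17674 and 9436 CPM in WT and KO of set 1 but at 13250.0 and 26639 CPM in set 2. The part of enterocyte content in the summed values of these 3 genes was not tested. The cluster with the highest marker sum in each set, looked at after the sums had been seen, gives a closer match, at 125140.0 CPM in WT and 144420.0 CPM in KO of set 1 (111 and 37 cells) and at 98740.0 and 112600.0 CPM in set 2 (101 and 387 cells).

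Within these 2 clusters Otop3 and Arsg were higher in KO in both sets. Otop3 was at 4.41 CPM in WT and 42.1 CPM in KO, a ratio of 9.54 (95% 3.84 to 26.9) in set 1. In set 2 it was at 4.18 CPM in WT and 22.8 CPM in KO, a ratio of 5.45 (95% 3.04 to 10.8). Arsg was at 6.94 CPM in WT and 33.3 CPM in KO, a ratio of 4.79 (95% 2.06 to 11.5) in set 1. In set 2 it was at 9.74 CPM in WT and 21.7 CPM in KO, a ratio of 2.23 (95% 1.48 to 3.46). The other set 1 enterocyte-like clusters with at least 20 cells of each genotype held few UMIs of Otop3: 0 in WT and 1 in KO, 2 and 1 (0.99 and 0.74 CPM), and 8 and 5 (3.98 and 9.17 CPM). These values come from the contrast that chose the genes, and the clusters were picked after it was seen, so they are a description only.

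Adora2b differed from them. It was at 11.4 CPM in WT and 17.7 CPM in KO, a ratio of 1.56 (95% 0.588 to 3.78) in the set 1 cluster. In the set 2 cluster it was at 17.7 CPM in WT and 17.7 CPM in KO, a ratio of 0.996 (95% 0.716 to 1.4). Over all enterocyte-like cells Adora2b went from 2.93 to 5.51 CPM in set 1 and from 3.89 to 9.72 CPM in set 2, ratios of 1.88 (95% 1.07 to 3.32) and 2.5 (95% 1.85 to 3.4), and these cells held 31 of 54 KO UMIs in set 1 and 165 of 228 in set 2. It was also higher in KO in classes where WT had almost none: in cycling-like cells Adora2b went from 0 to 1.67 CPM in set 1 and from 0.0797 to 2.76 CPM in set 2, in stem-like cells from 0 to 1.44 CPM in set 1 and from 0 to 2.67 CPM in set 2 and in goblet-like cells from 0 to 2.38 CPM in set 1 and from 0.256 to 1.74 CPM in set 2.

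Ptprc-positive cells could be read in set 2 only. Cuedc1 was at 9.61 and 10.4 CPM in WT and KO, a ratio of 1.08 (95% 0.502 to 2.2). Pctp was at 8.58 and 5.21 CPM, from 25 and 6 UMIs, a ratio of 0.607 (95% 0.204 to 1.52). Gm11508 had 2 UMIs in WT and 7 in KO, a ratio of 8.85 (95% 1.69 to 87.3), and was the member with a difference beyond counting error. The other 5 genes had 0 to 7 UMIs in a sample. Cuedc1, which by direction alone was higher in 6 of the 7 epithelial classes in both sets, showed no detectable difference in these leukocytes. The leukocyte interval also covers the Paneth-like ratios of 1.69 (95% 0.72 to 4.16) in set 1 and 1.27 (95% 0.661 to 2.57) in set 2, which include no difference. By the 2-fold rule, 135 of 9350 genes (1.44%) differed alike in both sets in Ptprc-positive cells. That count also leans on the few cells of set 1. Cuedc1 and Pctp, the 2 members with a mean of at least 5 CPM, were not among them, but the rule could not judge them. In set 1 Cuedc1 had 0 UMIs in WT and 0 in KO, and Pctp had 0 in WT and 1 in KO. Across samples, edgeR's quasi-likelihood test called 0 of 6848 genes (0%) there, 6 had an unadjusted p under 0.05, DESeq2 called 0, and a fit with the set as a block called 22.

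Neighbours along the chromosome were compared with the members. Of 181 genes that start within 500000 bases of a member, 76 had a mean of at least 1 CPM in Epcam-positive cells. None of the 76 was 2-fold apart alike in both sets. At 1.5-fold there were 2, Igtp, an interferon-induced GTPase gene near 1810065E05Rik, and Fam20a, a gene near Arsg, both lower in KO, against 66 of 11205 genes (0.589%) in the whole table. Igtp was at 22.9 and 4.37 CPM in WT and KO of set 1 and 16.8 and 9.24 CPM in set 2. Fam20a was at 12.3 and 0.312 CPM in WT and KO of set 1 and 18.1 and 9.58 CPM in set 2. The median difference of the 66 neighbours with at least 5 CPM was 0.06 and -0.12 in the 2 sets on the log2 scale, beside 0.04 and -0.13 over all genes.

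By chromosome, 14 of 939 genes of chromosome 11 (1.49%) were 1.5-fold apart alike in both sets. Without the members 9 remain (0.966%). Chromosome 17 had 9 of 579 (1.55%) and chromosome 1 had 8 of 638 (1.25%). The 9 other genes of chromosome 11 were Irgm1, Gm5431, Ifi47, Igtp, Xaf1, Slfn2 and Fam20a, lower in KO, and Fabp6 and Ltc4s, higher. Irgm1, Ifi47, Igtp, Xaf1 and Slfn2 are known interferon-induced genes. Strain-derived DNA that the KO mice might share, on chromosome 11 or elsewhere, cannot be told apart from the KO itself in this design.

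**Figure D3:**
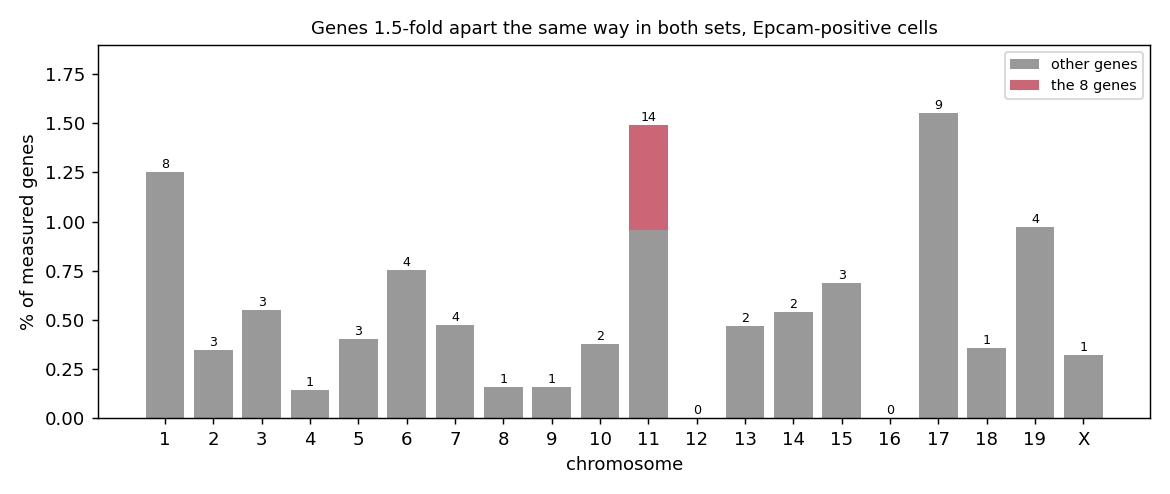
Share of genes with a mean of at least 1 CPM in Epcam-positive cells that were 1.5-fold apart the same way in both sets, by chromosome, with the number of genes above each bar and the members in red. Chromosome 11 holds 14 such genes, 5 of them members, and chromosome 17 has a share of 1.55%.

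Genes outside the group were also picked by their differences in both kinds of cells, over 4 samples each. The rule asked for at least 2-fold alike in both sets in Epcam-positive cells and 1.5-fold the same way in Ptprc-positive cells. It was met by 3 genes, ranked by the smallest of the 4 within-set log2 differences. No member met both parts. Rprml, Pctp and 1810065E05Rik met the Epcam-positive part alone, as did other genes, so the 3 are not the closest in pattern to the members. The Ptprc-positive part could not judge Rprml, Pctp and 1810065E05Rik, which had 0 or 1 UMI in each set 1 sample there. Wdfy1, which encodes an adaptor of Toll-like receptor signalling, was at 8.44 and 32.4 CPM in WT and KO of set 1 and 9.98 and 57.7 CPM in set 2, with a smallest difference of 1.82. It lies on chromosome 1, 4.8 Mb from Mir375. Gm8797 had a smallest difference of 1.27, and Gcg, the proglucagon gene of enteroendocrine cells, was lower in KO with -0.80. Differences in the set 1 Ptprc-positive cells rest on 12 and 10 cells.

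Relatives of the members by family were read in the same way. Of 50 listed relatives in the matrices, 26 had a mean of at least 5 CPM and 33 of at least 1 CPM, and 0 were 1.5-fold apart alike in both sets at either level, beside 0.589% of all genes at 1 CPM. They include other adenosine receptors and purine enzymes (5 of 12 at 1 CPM), sulfatases (10 of 13), START carriers (10 of 14) and CUE domain genes (8 of 8). Their medians in the 2 sets, -0.03 and -0.10, were near those of all genes. Otop2, which lies beside Otop3, was at 0.06 to 0.13 CPM in all 4 samples, and Rprm, the relative of Rprml, was under 1 CPM.

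The sorted crypt libraries, whose labels name no KO, show how the genes vary in a separate setting. Totals ran from 10689000.0 to 19124000.0 normalized counts a library. The labels do not say that libraries came from separate mice, so p-values measure the spread between these libraries, which may be technical. Cell type markers moved between the groups. The 18 summed enteroendocrine markers ran from 619870.0 to 1315700.0 normalized counts in germ-free and from 142890.0 to 345430.0 in conventionalized libraries, without overlap. They ran from 397340.0 to 1346200.0 on chow and from 123530.0 to 314600.0 on high fat diet. In bulk samples, fewer cells of a type and less RNA per cell cannot be told apart. The 14 summed cycling markers moved the other way, 5086 to 24525 in germ-free against 33905 to 45753 in conventionalized libraries, and 12 stem markers overlapped (16822 to 85423 against 75871 to 149940.0), with none of either list at 0. The 13 tuft markers also separated chow (30229 to 56753) from high fat diet (6993 to 20494), and cycling markers overlapped there. Markers of B lymphocytes or plasma cells also differed, 7192 to 67136 on chow and 849 to 2651 on high fat diet, and they overlapped between germ-free and conventionalized libraries.

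In germ-free against conventionalized mice, limma called 453 of 20214 genes (2.24%), and 2 of the 6 members tested, Rprml and Otop3, rose. Adora2b and Gm11508 were below a mean of 10 normalized counts and were not tested. Rprml had 1147, 661, 759 and 424 normalized counts in the germ-free libraries and 191, 156, 327 and 343 in the conventionalized ones. The groups did not overlap, at 748 ± 301 against 254 ± 94.6 (SD, n = 4 each). The log2 difference was 1.54 (SE 0.36, limma adjusted p = 0.0456), higher in 4 of 4 libraries.

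Otop3 had 1005, 499, 1956 and 561 normalized counts in germ-free and 206, 46, 232 and 215 in conventionalized libraries. The lowest germ-free library was above the highest conventionalized one, with means of 1005 ± 673 and 175 ± 86.5 (SD, n = 4 each). Its log2 difference was 2.54 (SE 0.54, limma adjusted p = 0.0323). Arsg also did not overlap between the groups, as held for 12.5% of tested genes, and its log2 difference was 1.26 (SE 0.40, limma adjusted p = 0.135). Cuedc1 gave 1.17 (SE 0.41, limma adjusted p = 0.163), 1810065E05Rik -2.85 (SE 1.02, limma adjusted p = 0.172) and Pctp -0.68 (SE 0.35, limma adjusted p = 0.29), and none of these passed.

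Both calls depend on single libraries. Rprml passed with all libraries and without germ-free replicate 4, and lost the call when any of the other 7 libraries was left out, with adjusted p from 0.0553 to 0.145. Its adjusted p over all 13 alternatives ran from 0.0322 to 0.145. Otop3 lost the call without germ-free replicates 1 or 3 or conventionalized replicates 1, 2 or 4, with adjusted p from 0.051 to 0.108, and its range over 13 alternatives was 0.0075 to 0.108. Rprml also lost it under median-of-ratios rescaling (adjusted p = 0.0555). Both differences stayed positive throughout. Without germ-free replicate 1, 1 gene of the whole table was called in place of 453.

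High fat diet against chow gave 135 called genes of 16421 (0.822%) and no called member, though 6 of 7 members had an unadjusted p under 0.05, beside 4383 of all genes. Rprml had 103, 205, 164 and 212 normalized counts on high fat diet and 287, 281, 1199 and 783 on chow, with no overlap, as held for 16.2% of genes. Its log2 difference was -1.67 (SE 0.46, limma adjusted p = 0.0889). Cuedc1 was lower as well, -1.39 (SE 0.42, limma adjusted p = 0.0951), as were Arsg, -0.89 (SE 0.35, limma adjusted p = 0.142), and Otop3, -1.38 (SE 0.60, limma adjusted p = 0.175). Pctp was higher at 702, 682, 654 and 606 against 467, 559, 346 and 456, 0.55 (SE 0.16, limma adjusted p = 0.0912), again without overlap. 1810065E05Rik was higher by 1.80 (SE 0.55, limma adjusted p = 0.0958). Without chow replicate 2, limma called 2590 genes, and Rprml (adjusted p = 0.0306), Pctp (0.0315), Cuedc1 (0.0347) and 1810065E05Rik (0.0499) passed. Without chow replicate 1 or 4, or any high fat library, 0 genes passed.

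Conventionalized against chow gave 17 called genes of 17941 (0.0948%) and no called member, and 2 of 7 had an unadjusted p under 0.05, beside 2017 of all genes. Rprml gave -1.12 (SE 0.46, limma adjusted p = 0.397) and Cuedc1 -1.01 (SE 0.38, limma adjusted p = 0.362). The groups of every member overlapped, while those of 6.55% of genes did not. This comparison shares its conventionalized and chow libraries with the other 2. Adora2b was at a mean of 14.1 normalized counts in conventionalized, 14.0 in chow and 14.6 in high fat libraries, near the minimum, and Gm11508 was at 0 in 12 of 16 libraries and at most 1.46.

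**Figure D4:**
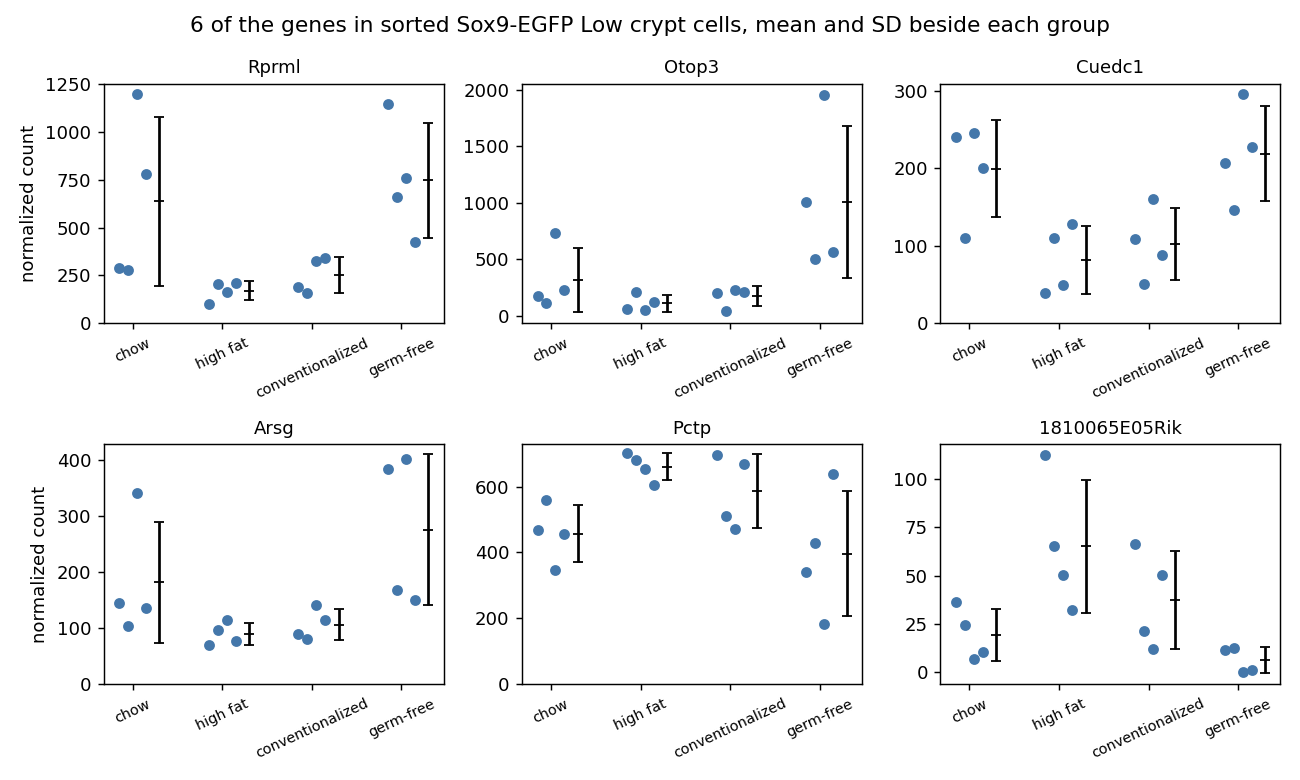
Normalized counts of 6 of the genes in the 16 sorted crypt libraries, 1 point per library, with the group mean and SD to the right of each group. The group means of Rprml and Otop3 are highest in the germ-free group, although the highest Rprml library is a chow one at 1199, while Pctp and 1810065E05Rik have their lowest values there.

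With the group means removed, Rprml followed the summed markers closely over the 16 libraries, r = 0.97 (permutation p = 1e-05, adjusted 7e-05) and rho = 0.95 (p = 2e-05, adjusted 0.00014), where 1e-05 is the smallest p these 100000 permutations can give. Without the 2 libraries farthest from the median r was 0.96. Otop3 gave r = 0.78 (permutation p = 0.00069, adjusted 0.00177) and rho = 0.71 (p = 0.00306, adjusted 0.00714), and r = 0.71 without 2 libraries. Arsg gave r = 0.76 (permutation p = 0.00076, adjusted 0.00177) and rho = 0.72 (p = 0.00229, adjusted 0.00714), and r = 0.68. Cuedc1 gave r = 0.64 (permutation p = 0.00927, adjusted 0.0162) and rho = 0.55 (p = 0.0287, adjusted 0.0503), and its rank correlation missed the threshold. Pctp (r = -0.41), 1810065E05Rik (r = -0.29) and Adora2b (r = 0.17) had adjusted p of 0.161, 0.311 and 0.532. With the group means kept, Pctp (r = -0.71, adjusted permutation p = 0.00146) and 1810065E05Rik (r = -0.70, adjusted permutation p = 0.00224) passed, so their relation with the markers depends on that choice. These 7 relations were added after the libraries had been seen, and the part of enteroendocrine or cycling cell content in the germ-free and diet differences was not tested.

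**Figure D5:**
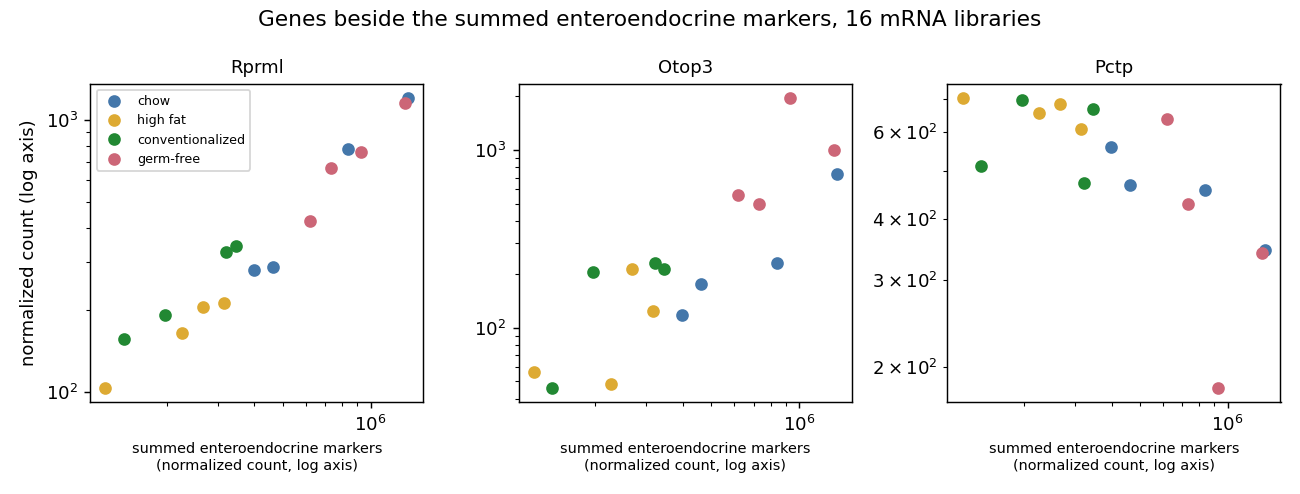
Normalized counts of Rprml, Otop3 and Pctp against the summed enteroendocrine markers in the 16 mRNA libraries, both axes logarithmic, coloured by group. The Rprml points lie close to a line across all 4 groups, and the Pctp points slope down.

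Among the 21 pairs of 7 members, 5 passed both correlations after adjustment over the pairs. Cuedc1 and Otop3 gave r = 0.80 (adjusted permutation p = 0.00693), rho = 0.79 (adjusted p = 0.0111) and r = 0.74 without 2 libraries. Rprml and Arsg gave r = 0.75 (adjusted permutation p = 0.00693), rho = 0.70 (adjusted p = 0.0186) and r = 0.60 without 2 libraries. Rprml and Otop3 gave r = 0.73 (adjusted permutation p = 0.0084), rho = 0.65 (adjusted p = 0.0322) and r = 0.61 without 2 libraries. Arsg and Otop3 gave r = 0.71 (adjusted permutation p = 0.00878), rho = 0.71 (adjusted p = 0.0174) and r = 0.52 without 2 libraries, and Pctp and Arsg ran opposite, r = -0.73 (adjusted permutation p = 0.00693), rho = -0.73 (adjusted p = 0.0174) and r = -0.69 without 2 libraries. No pair of 1810065E05Rik or Adora2b passed. Rprml and Cuedc1 gave r = 0.51 (adjusted permutation p = 0.124). The part of enteroendocrine cell content in these pair correlations was not tested.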

How the data were processed

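Single-cell RNA from 4 intestinal samples and mRNA from 16 sorted crypt libraries were used; the small RNA samples of the series were not analysed here. The authors deposited UMI counts per gene and barcode, raw and unnormalized, for the single cells. For mRNA the authors deposited normalized counts, treated as a signal with no raw depth. The submitters' processing notes name the genome build mm10, Cell Ranger, STAR, Salmon and DESeq2 without giving a role, and the set 2 matrices name software 3.0.1 per the file headers. Of 48440 entries for mRNA, 381 have no gene name; they held 0.0338% to 0.0804% of a library's total and were left out.

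Barcodes were kept from 500 genes and 1000 UMIs upward if mitochondrial transcripts made up less than 25%, and the barcodes with the highest Scrublet scores, 0.8% per 1000 barcodes, were removed as doublets, because Scrublet's own threshold called 2 to 26 cells a sample. Cells were split by at least 1 UMI of Epcam or Ptprc and none of the other. UMIs were summed per sample. Sets were clustered apart (scanpy 1.11.5, 2000 variable genes, 30 components, 15 neighbours, Leiden resolution 1, the 8 genes left out), and a cluster was named from at least 3 markers that were 2-fold higher in it, with clusters of fewer than 20 cells left unnamed. These names were rebuilt and are not the authors'. Differences are on the log2(CPM + 1) scale. The genes named besides the 8 were those 2-fold apart alike in both sets in Epcam-positive and 1.5-fold in Ptprc-positive cells, and members of the family and position lists that were 2-fold apart, of which there were 0. Igtp, Fam20a and the other genes of chromosome 11 named at 1.5-fold, H2-Aa, and the genes beside the threshold or overlapping a member were named outside this rule, after their values were seen.

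Sums were tested with edgeR 4.0.16 (quasi-likelihood test) and, as an alternative, DESeq2 1.42.0, and the mRNA with limma 3.58.1 on log2(normalized count + 1) for genes with a mean of at least 10, all with Benjamini-Hochberg adjustment over all genes tested at a threshold of 0.05. Only the 2 groups compared entered each fit. Correlations used 100000 permutations with group means removed. Count intervals are exact and cover counting error only. On simulated data with 200 changed genes, edgeR recovered 64% of 4-fold changes over 12974 genes in Epcam-positive cells and 3% over 6848 genes in Ptprc-positive cells, and limma 70% of 8-fold changes over 20214 genes. Positions are from GENCODE M21. Same-numbered single-cell samples deviated together (r = 0.62 over 12974 genes, 1 pair of sets). The 8 genes and all lists were chosen with earlier results of these data known.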

Additional observations from a re-analysis of the deposited data

Results flagged for a closer look

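A few values stood apart by a gap test within groups of 4 libraries, applied to 31 groups of the 8 genes. Chance alone flags about 1 in 20 groups of normally distributed values, and 4 were found. A group with 3 libraries at 0, as in Gm11508, is flagged whatever the other value, so the 4 cannot be set against that rate. Arsg, the lysosomal sulfatase gene, was at 340.6 normalized counts in chow replicate 3, above the next chow library at 144.2. That library also had the highest enteroendocrine marker sum of its group. Otop3, the proton channel gene, was at 45.99 in conventionalized replicate 2, below the next at 206. Gm11508 was at 0.7645 in 1 chow library and at 1.459 in 1 germ-free library, with the other 3 libraries of each group at 0.

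Arsg values also lay on opposite sides between cell classes. In enterocyte-like cells it went from 2.11 to 4.441 CPM in set 1 and from 2.26 to 11.1 CPM in set 2. In enteroendocrine-like cells and in tuft-like cells KO was below WT in both sets. The difference between classes was not tested. The enteroendocrine-like and tuft-like ratios have counting intervals that include no difference, since the enteroendocrine-like values rest on 4 and 0 UMIs in set 1 and 5 and 4 in set 2, the tuft-like ones on 3 and 3 and on 3 and 4.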

How the results depend on the processing

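With all alternatives counted, the bulk tests of single genes and the correlations kept direction and side of the threshold in 238 cases, lost the call in 14, gained it in 8 and changed sign in 7. The differences of the 8 genes between KO and WT stayed within the spread in 91 cases, moved in 20 and changed sign in 1, Pctp in Ptprc-positive cells with a gate of 2 UMIs (-0.47). Adora2b changed sign between high fat diet and chow under median-of-ratios rescaling (-0.026) and without single libraries (-0.26 to 0.32), between conventionalized and chow without 1 library (-0.67 to 0.39 over the libraries), and in its correlation with enteroendocrine markers with group means kept (-0.22). Genes called in Epcam-positive cells, 0, became 9 with DESeq2 and 1 with no filter, and 0 to 4 when each sample was left out; in Ptprc-positive cells, 0 became 6 with no filter and 0 to 15 with a sample left out. For germ-free, the spread over 4 groups gave 1672 genes and leaving out libraries 1 to 684. For high fat diet, no filter gave 317, the pooled spread 33 and leaving out libraries 0 to 2590. For conventionalized against chow these were 39, 26 and 0 to 6. With the replicate block, which the numbers of the mRNA libraries do not support as a pairing, the counts were 494, 271 and 165, and Rprml in germ-free mice missed the threshold (adjusted p = 0.0622); with the set as replicate block, Epcam-positive cells gave 0 genes and Ptprc-positive cells 22. Genes 2-fold apart alike in Epcam-positive cells, 9, became 5 with a pseudocount of 5, 39 at 1.5-fold, 2 at 20 CPM and 66 at 1 CPM and 1.5-fold, with 1, 10, 0 and 14 on chromosome 11. In Ptprc-positive cells, 135 became 40, 523, 24 and 767, with 204 under the gate of 2 UMIs and 260 at 1 CPM; on chromosome 11, 15 became 5, 46, 3 and 63, and 24 at 1 CPM. Of 21 pairs of genes, 16 correlated with group means kept against 5 with them removed. The causes were not tested. Alternatives at 1 CPM, samples left out of the single-cell differences, and the enteroendocrine correlations were chosen after seeing the data. The planned search for miR-375 seed matches was not run, since the mature sequence was not in the reference tables. Depth limits Gm11508, the rare cell classes and all of set 1 Ptprc-positive cells.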

Other observations

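Besides the 8 genes, 5 known interferon-induced genes of chromosome 11 were lower in KO Epcam-positive cells of both sets, each by at least 1.5-fold on the log2(CPM + 1) scale. They are Irgm1 and Igtp, which encode immunity-related GTPases, Ifi47, Xaf1 and Slfn2. Irgm1 was at 18.6 and 8.2 CPM in WT and KO of set 1 and at 20.7 and 10.6 CPM in set 2. Ifi47 was at 14.8 and 6.55 CPM in WT and KO of set 1 and at 18.4 and 10.9 CPM in set 2. Xaf1 was at 10.8 and 4.15 CPM in WT and KO of set 1 and at 10.0 and 5.64 CPM in set 2. Slfn2 was at 5.16 and 2.45 CPM in WT and KO of set 1 and at 8.82 and 3.32 CPM in set 2. H2-Aa, a class II antigen presentation gene on chromosome 17, went the same way, at 461 and 114 CPM in WT and KO of set 1 and 264 and 138 CPM in set 2. None of these differences was tested, and the genes were named after their values were seen. On the other side, Ltc4s, which encodes leukotriene C4 synthase, was at 14.2 and 24 CPM in WT and KO of set 1 and 8.55 and 20.3 CPM in set 2, and Fabp6, the ileal bile acid binding protein gene, was at 167 and 269.9 CPM in WT and KO of set 1 and 763 and 1171 CPM in set 2.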
